A study of Mus musculus with 10 samples.

Results

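The 7 genes that encode subunits of the NMDA receptor, the glutamate receptor that opens only when glutamate and a co-agonist are both bound and the membrane is depolarised, were followed in whole mouse cerebellum. They are Grin1, Grin2a, Grin2b, Grin2c, Grin2d, Grin3a and Grin3b, taken by gene symbol, and all 7 are among the 53447 genes listed for every library. RNA was sequenced from cerebellum of 5 Dscam del17/del17 mice (labelled DscamKO) and 5 wild-type (WT) mice (labelled Control) labelled as BALB/c, at postnatal day 21 (P21), with 1 library for each mouse. The del17 allele arose spontaneously, lacks bases within an exon and abolishes the function of Dscam, which encodes an adhesion protein of neurons with immunoglobulin domains. By the study's methods the line was maintained by crossing to BALB/cCrSlc mice. The allele is present in every cell of the mutant mouse rather than in 1 cell type. The WT mice were littermates, and mice of both sexes were used. Values are given as TPM, a transcript level corrected for gene length and scaled to the total of its library. Genes can thus be compared within a library, as far as the lengths used hold. Those lengths are not given in the sources used here. In the annotation used here, the longest coding transcript had 4276 bases for Grin1, 4895 for Grin2c and 5431 for Grin2d. It had 14634 bases for Grin2a and 24060 for Grin2b. What these lengths do to the subunit levels was not tested. The number of reads behind a TPM value cannot be recovered from it, and the depth is unknown.

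An NMDA receptor contains the obligatory GluN1 subunit, encoded by Grin1, which binds the co-agonist glycine or D-serine, together with GluN2 subunits, which bind glutamate. The GluN2 subunit sets how long the channel stays open and how strongly magnesium blocks it, and GluN3 subunits bind glycine and lower calcium entry. In the rodent cerebellum, granule cells are known to replace GluN2B with GluN2A and GluN2C as they mature after birth, and GluN2C is a hallmark of mature granule cells. The comparison asked what mix of these subunit mRNAs the P21 cerebellum held and whether it differed between Dscam del17/del17 and WT mice.

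In both genotypes the receptor mRNA consisted almost entirely of Grin2c and Grin1. Over the 10 libraries, Grin2c averaged 274.8 ± 60.7 TPM and Grin1 245.0 ± 31.1 TPM (SD, n = 10). Far below them followed Grin2d at 9.38 TPM, Grin2a at 7.75 TPM, Grin3a at 4.67 TPM, Grin3b at 2.76 TPM and Grin2b at 0.508 TPM. Grin1 and Grin2c together made up 94.4 to 95.8% of the summed TPM of the 7 genes in Dscam del17/del17 cerebella and 94.5 to 97.0% in WT cerebella. Grin2c lay above Grin1 in 8 of the 10 libraries, 3 mutant and 5 WT, but the ranges of the 2 genes overlapped, as did those of Grin2d and Grin2a and of Grin3a and its neighbours in this order. Gaps, with no overlap in any library, separated Grin1 from Grin2d and Grin3b from Grin2b. The first was wide, with Grin1 at or above 185.99 TPM and Grin2d at or below 12.4 TPM. The second was narrow, with the lowest Grin3b at 1.45 TPM and the highest Grin2b at 1.26 TPM. In the plot of TPM by mouse, these gaps appear as 3 tiers, of which the lower 2 nearly meet.

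**Figure D1:**
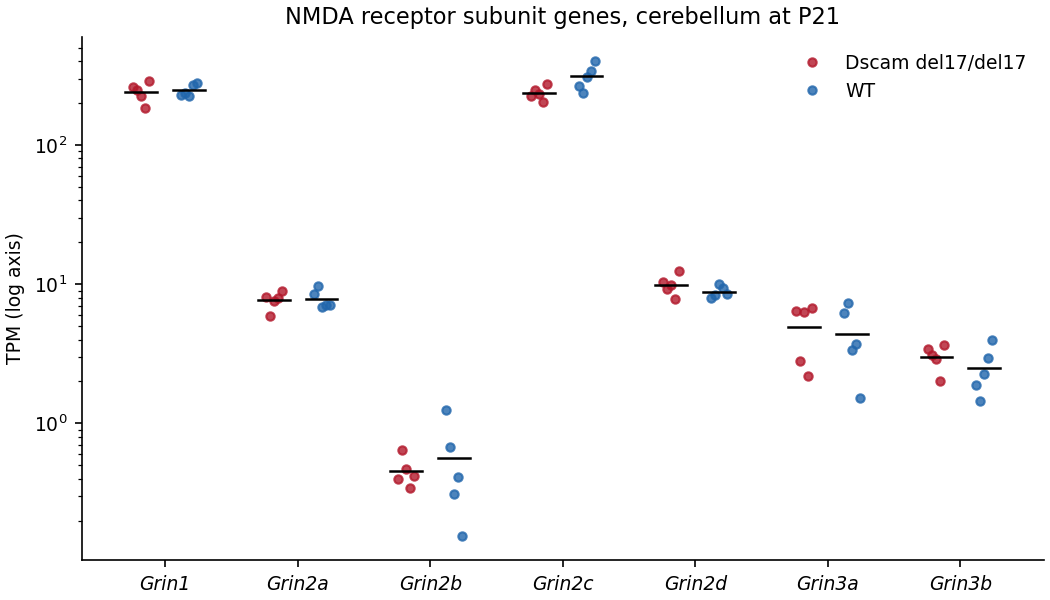
TPM of each NMDA receptor gene (log axis) in each mouse, with Dscam del17/del17 mice left of WT mice and a black line at each group mean. Grin2c and Grin1 lie between 186.0 and 404.5 TPM, Grin2d, Grin2a, Grin3a and Grin3b between 1.45 and 12.4 TPM, and Grin2b at or below 1.26 TPM.

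The promoters of Grin1 and Grin2c, the 2 genes that supplied nearly all of the receptor mRNA, are shown as the 250 bases before the RefSeq start, read 5′ to 3′ on the gene's strand (mouse build GRCm38.p6). The Grin1 window is chr2:25319188-25319437 and the Grin2c window chr11:115267244-115267493, both on the minus strand, and capitals mark the GC box GGGCGG, a motif bound by Sp-family factors.
Grin1: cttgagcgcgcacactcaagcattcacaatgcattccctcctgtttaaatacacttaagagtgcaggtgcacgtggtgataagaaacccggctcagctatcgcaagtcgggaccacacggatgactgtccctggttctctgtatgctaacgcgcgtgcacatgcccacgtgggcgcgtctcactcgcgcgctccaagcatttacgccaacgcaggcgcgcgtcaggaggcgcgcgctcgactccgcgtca
Grin2c: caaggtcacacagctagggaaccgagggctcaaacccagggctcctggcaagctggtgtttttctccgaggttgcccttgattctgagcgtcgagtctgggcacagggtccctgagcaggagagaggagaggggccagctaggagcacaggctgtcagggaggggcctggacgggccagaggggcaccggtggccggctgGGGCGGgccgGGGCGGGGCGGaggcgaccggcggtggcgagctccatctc
The motif (GGGCGG or its complement CCGCCC) occurs 3 times in the Grin2c window, where the last pair shares a base, and 0 times in the Grin1 window. At least 1 copy is present in 32.7% of 32851 promoter windows of this length. The E-box CANNTG, which reads the same on both strands, occurs 4 times in the Grin1 window and 0 times in the Grin2c window, against 66.2% of windows that hold at least 1. The Grin1 window holds 27 CG dinucleotides and the Grin2c window 15, where the median window holds 6. These matches describe letters in a window and were not tested against the levels.

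Between genotypes, with all 10 libraries and no covariate, Grin2c had the largest log2 fold change in size among the 6 members tested across genes, and it did not pass the adjusted test. Across all genes, limma called 0 of 17168 genes at an adjusted p under 0.05 (0% called), while 953 had an unadjusted p under 0.05. Of the 7 NMDA receptor genes, 6 passed the expression filter of at least 0.5 TPM in at least 5 libraries and 0 were called. Grin2c alone had an unadjusted p under 0.05 with lower values in the mutant, where 3.26% of all genes did. The TPM ranges of mutant and WT libraries overlapped for all 7 members, where 1.22% of all genes had ranges that lay apart. The log2 fold changes (mutant minus WT, on log2 of TPM plus 0.1) were below 0 for 3 of the 6 measured members (Grin1, Grin2a and Grin2c) and above 0 for Grin2d, Grin3a and Grin3b, against 44.0% of all genes below 0. Their median was 0.07, and that of all genes 0.05. Without WT replicates 3 and 5, whose libraries differed from the rest as described with Grin2c, 4 members lay below 0 and 2 above. The median of the members was then -0.08, and that of all genes -0.09.

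Grin2c (ENSMUSG00000020734, chr11:115249169-115267243, minus strand, GRCm38) encodes GluN2C, the subunit with weak magnesium block found in mature granule cells. It had 226.8, 250.1, 233.3, 204.8 and 273.0 TPM in Dscam del17/del17 cerebella, against 267.4, 238.0, 310.2, 339.5 and 404.5 TPM in WT cerebella. All 5 mutant libraries lay at or below 273.0 TPM, and WT replicates 1 and 2 fell within their range while WT replicates 3, 4 and 5 lay above it. The group means were 237.6 ± 25.6 TPM in mutant and 311.9 ± 64.8 TPM in WT mice (SD, n = 5 each). The log2 fold change was -0.37 (95% interval -0.68 to -0.07), with an unadjusted limma p of 0.0203 and an adjusted p of 0.779, and the exact permutation test of this gene alone gave a two-sided p of 0.0476.

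The Grin2c level moved with the amount of mitochondrially encoded mRNA in the library. The summed TPM of the 13 mitochondrial mRNAs was 41676, 37256, 39488, 44973 and 34717 in Dscam del17/del17 libraries, against 44670, 38733, 23124, 32199 and 15206 in WT libraries. The WT libraries 3, 4 and 5, with the least mitochondrial mRNA, were those with the most Grin2c, and within the mutant group as well the order of Grin2c was the reverse of that of mitochondrial mRNA. With the mitochondrial level as a covariate the Grin2c log2 fold change was -0.17 (-0.39 to 0.04), and without WT replicates 3 and 5 it was -0.24 (-0.53 to 0.05). The median of all genes itself moved to -0.10 with that covariate and to -0.09 without those libraries. Both Grin2c intervals then included 0. In WT replicates 3, 4 and 5, Grin1 had 223.9, 270.6 and 281.2 TPM, all inside the range of the mutant libraries.

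**Figure D2:**
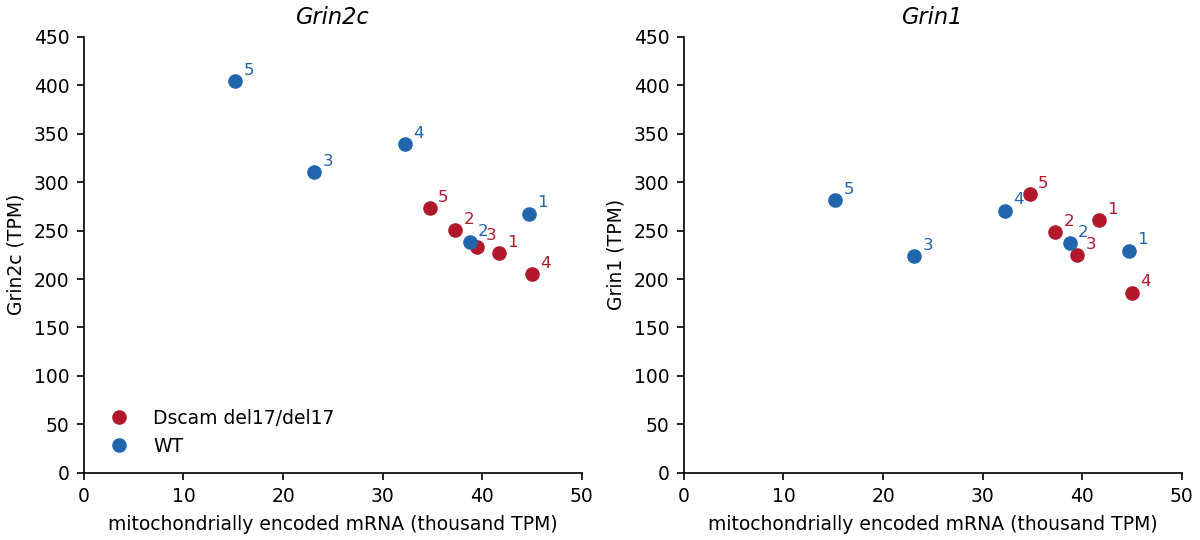
TPM of Grin2c and Grin1 (vertical axes) against the summed TPM of the 13 mitochondrially encoded mRNAs (horizontal axis, with the unit printed on it), 1 point for each mouse with its replicate number. WT replicates 3, 4 and 5, at the left with 23124, 32199 and 15206 TPM of mitochondrial mRNA, have the highest Grin2c at 310.2, 339.5 and 404.5 TPM.

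Grin1 (ENSMUSG00000026959, chr2:25291181-25319187, minus strand), which encodes the obligatory GluN1 subunit, had 261.1, 248.1, 224.9, 186.0 and 287.6 TPM in Dscam del17/del17 cerebella, against 229.4, 237.2, 223.9, 270.6 and 281.2 TPM in WT cerebella. The WT values lay within the range of the mutant values, where replicate 4 was below every WT library, and the means were 241.5 ± 38.4 TPM in mutant and 248.4 ± 25.8 TPM in WT mice (SD, n = 5 each). The log2 fold change was -0.05 (-0.32 to 0.22) and the adjusted limma p 0.926. An antisense gene, Grin1os, shares 1307 exonic bases with Grin1, but it reached at most 0.232 TPM.

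Among the minor GluN2 genes, Grin2d, Grin2a and Grin2b each had overlapping groups. Grin2d (ENSMUSG00000002771, chr7:45831883-45878378, minus strand) encodes GluN2D, a subunit of slowly closing receptors known from interneurons and from the developing brain. It had 10.3, 9.24, 9.80, 7.89 and 12.4 TPM in Dscam del17/del17 cerebella, against 7.97, 8.34, 10.1, 9.34 and 8.46 TPM in WT cerebella. The 2 highest values were from mutant mice, but so was the lowest. The means were 9.92 ± 1.64 TPM in mutant and 8.84 ± 0.869 TPM in WT mice (SD, n = 5 each), with a log2 fold change of 0.15 (-0.23 to 0.54) and an adjusted limma p of 0.840. It lay between 0.072 (without mutant replicate 5) and 0.23 (without mutant replicate 4) when 1 library was left out, and was 0.055 with values centred on each library's median.

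Grin2a (ENSMUSG00000059003, chr16:9567898-9995560, minus strand), which lies on the same chromosome as Dscam, encodes GluN2A, the subunit of fast-closing receptors in mature neurons. Its values were 8.03, 5.91, 7.62, 8.01 and 8.89 TPM in Dscam del17/del17 cerebella, against 8.49, 9.66, 6.84, 7.05 and 7.05 TPM in WT cerebella. The lowest value was from a mutant mouse and the highest from a WT mouse, and the groups otherwise intermingled. The means were 7.69 ± 1.10 TPM in mutant and 7.82 ± 1.22 TPM in WT mice (SD, n = 5 each), with a log2 fold change of -0.02 (-0.44 to 0.40).

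Grin2b (ENSMUSG00000030209, chr6:135713233-136173511, minus strand) encodes GluN2B, the GluN2 subunit that cerebellar granule cells replace as they mature. It reached 0.5 TPM in only 3 of the 10 libraries and so did not enter the test across genes. Its values were 0.400, 0.643, 0.467, 0.341 and 0.420 TPM in Dscam del17/del17 cerebella, against 1.26, 0.671, 0.312, 0.415 and 0.154 TPM in WT cerebella. The WT libraries spread over a wider range than the mutant ones and held both the highest and the lowest value. The exact permutation test of Grin2b alone gave a two-sided p of 0.944 for a log2 difference of -0.04. The difference was -0.58 without WT replicates 3 and 5, with an exact permutation p of 0.143. Grin2a exceeded Grin2b in every library, by 9.19 to 23.5 times in Dscam del17/del17 cerebella and by 6.76 to 45.7 times in WT cerebella.

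The mix of GluN2 mRNAs was then taken as the share of each gene in the summed TPM of Grin2a, Grin2b, Grin2c and Grin2d of the same library. These shares do not change when a whole library is rescaled. Grin2c made up 92.4, 94.1, 92.9, 92.7 and 92.6% of the sum in Dscam del17/del17 cerebella, against 93.8, 92.7, 94.7, 95.3 and 96.3% in WT cerebella. The highest mutant share lay above the 2 lowest WT shares. The means were 92.9 ± 0.663% in mutant and 94.6 ± 1.36% in WT mice (SD, n = 5 each), a difference of -1.64 percentage points with an exact two-sided permutation p of 0.0556. Without WT replicates 3 and 5 the difference was -1.01 points with an exact permutation p of 0.232.

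The Grin2d share was the 1 share whose groups did not overlap. It was 4.21, 3.47, 3.90, 3.57 and 4.19% in Dscam del17/del17 cerebella, against 2.79, 3.25, 3.09, 2.62 and 2.01% in WT cerebella. Every mutant value lay above every WT value. The means were 3.87 ± 0.341% in mutant and 2.75 ± 0.480% in WT mice (SD, n = 5 each), a difference of 1.11 percentage points, and the exact permutation p was 0.0079, the smallest that 5 against 5 libraries can give. It was 1 of 4 shares compared, which are linked because together they make up the whole, and the p is not adjusted for them. Divided by the same Grin2 sum, 1.72% of all 17168 genes were likewise higher in every mutant library than in every WT library. The sum, which is mostly Grin2c, averaged 255.7 ± 27.1 TPM in Dscam del17/del17 cerebella and 329.1 ± 63.7 TPM in WT cerebella (SD, n = 5 each). Without WT replicates 3 and 5 the Grin2d share difference was 0.980 points with an exact permutation p of 0.0179. Set against Grin1 instead, Grin2d differed by a log2 ratio of 0.21 with an exact permutation p of 0.0794.

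The remaining shares were small and overlapped. Grin2a held 3.27, 2.22, 3.03, 3.62 and 3.02% of the Grin2 sum in Dscam del17/del17 cerebella, against 2.98, 3.76, 2.09, 1.98 and 1.68% in WT cerebella, with an exact permutation p of 0.254. Grin2b held 0.142 to 0.242% in Dscam del17/del17 cerebella and 0.0367 to 0.441% in WT cerebella, with an exact permutation p of 0.897. Grin2c mRNA was at least 92.36% of the GluN2 mRNA in each of the 10 libraries.

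**Figure D3:**
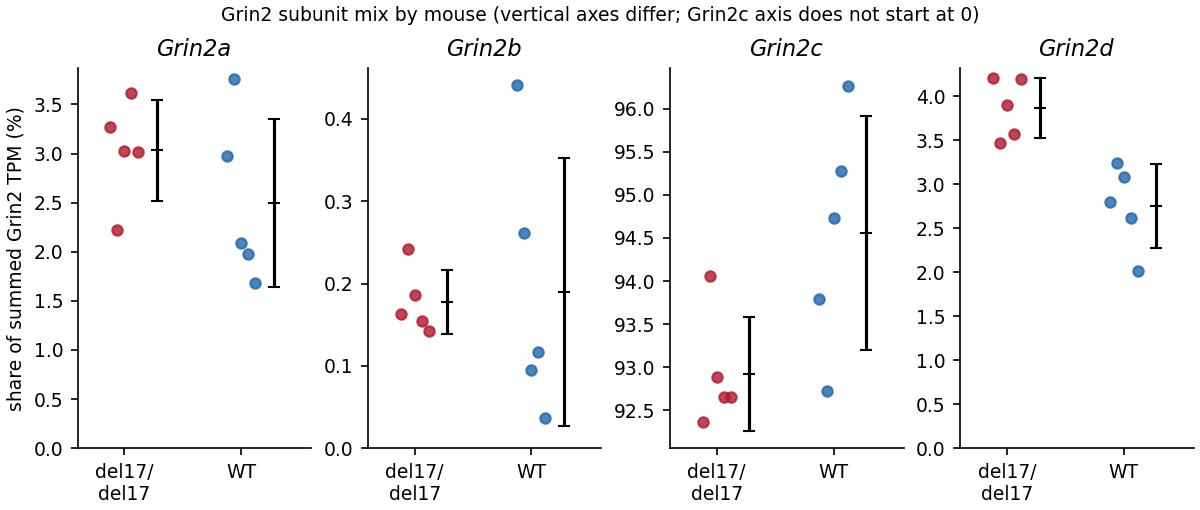
Share of each Grin2 gene in the summed Grin2 TPM of its library (percent), 1 point for each mouse with the group mean ± SD, Dscam del17/del17 left of WT. The axis of Grin2c does not start at 0. The Grin2d shares of 3.47 to 4.21% in mutant mice lie above the 2.01 to 3.25% of WT mice, and the other 3 genes overlap.

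The GluN2 mRNA per GluN1 mRNA followed Grin2c. The ratio of the Grin2 sum to Grin1 was 1.07 ± 0.094 in Dscam del17/del17 cerebella and 1.32 ± 0.168 in WT cerebella, and that of Grin2c alone to Grin1 was 0.993 ± 0.088 in Dscam del17/del17 and 1.25 ± 0.174 in WT cerebella (SD, n = 5 each). As a log2 ratio, Grin2c over Grin1 differed by -0.32 between the genotypes with an exact permutation p of 0.0317, which is not adjusted. The ranges of this ratio overlapped, with WT replicate 2 at 1.004 inside the mutant range of 0.869 to 1.10. Its highest values, 1.39 and 1.44, were those of WT replicates 3 and 5, and the ratio was not tested without them. The summed TPM of all 7 NMDA receptor genes was 505.1 ± 65.6 in Dscam del17/del17 cerebella and 584.5 ± 84.7 in WT cerebella.

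The GluN3 genes were low and variable. Grin3a (ENSMUSG00000039579, chr4:49661611-49845744, minus strand) had 6.44, 2.83, 6.36, 2.18 and 6.77 TPM in Dscam del17/del17 cerebella, against 6.17, 7.32, 3.35, 3.74 and 1.52 TPM in WT cerebella. Both groups held high and low libraries, and the log2 fold change was 0.19 with an interval of -0.84 to 1.22, the widest of the 6 measured members. Grin3b (ENSMUSG00000035745, chr10:79970715-79977190, plus strand) had 3.45, 3.09, 2.91, 2.01 and 3.65 TPM in Dscam del17/del17 cerebella, against 1.88, 1.45, 2.25, 2.96 and 4.004 TPM in WT cerebella. Of the mutant values, 4 of 5 exceeded the WT median of 2.25 TPM, while the highest value was from a WT mouse, and the log2 fold change was 0.31 (-0.42 to 1.05). It was 0.66 (-0.02 to 1.33) with mitochondrial mRNA as a covariate and 0.54 (-0.24 to 1.31) without WT replicates 3 and 5, and lay between 0.15 (without WT replicate 2) and 0.50 (without WT replicate 5) when 1 library was left out. Grin3b shares 1059 exonic bases with Tmem259 on the opposite strand, a gene at 124.1 to 144.1 TPM in Dscam del17/del17 cerebella and 129.3 to 186.5 TPM in WT cerebella. The libraries were directional, but the strand setting of the quantification is not given in the sources used here. Whether reads of the 2 genes in the shared stretch were told apart is therefore unknown.

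**Figure D4:**
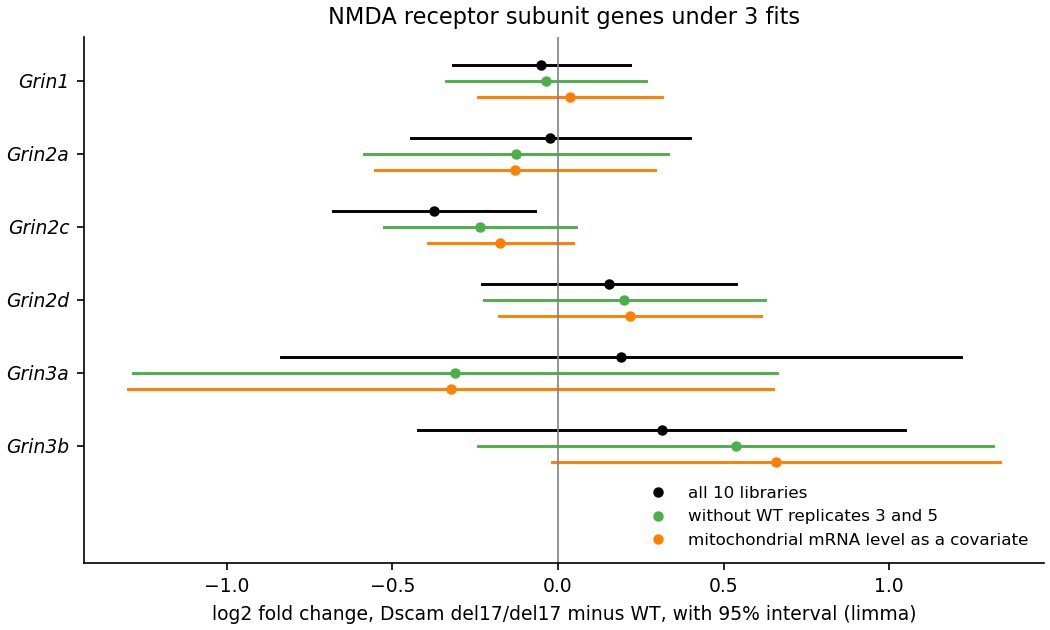
Log2 fold change (mutant minus WT) with its 95% interval for the 6 measured NMDA receptor genes, from all 10 libraries, without WT replicates 3 and 5, and with mitochondrial mRNA as a covariate. Grin2c is at -0.37, -0.24 and -0.17 in that order. Among these 3 fits, its interval excludes 0 only with all 10 libraries and no covariate.

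The genes whose level varied most like a subunit over the 10 libraries were listed by Pearson's r on log2 of TPM plus 0.1, as a description over libraries that share their genotype groups and scaling. For Grin2c they were Samd14 (r = 0.98), Xylt2 (r = 0.98) and Prmt6 (r = 0.97) of 10165 protein-coding genes searched. For Grin1 they were Fbxl14, Phyhip and Arhgap39, each with r = 0.90. For Grin2a they were Smc5 (r = 0.93), Wdr1 (r = 0.91) and Ahsa1 (r = 0.91). For Grin2b they were C1qbp (r = 0.97), Rgs7 (r = 0.97) and Sh3bp5 (r = 0.96). No gene was shared between these 4 sets.

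The other glutamate receptor families were measured in full and had 0 genes called. All 4 AMPA receptor genes, which carry fast excitatory transmission, had log2 fold changes above 0 with a median of 0.33, from 0.03 for Gria1 to 0.60 for Gria3, and the interval of each included 0. This direction did not hold under other settings. Without WT replicates 3 and 5, 1 of the 4 was above 0, with a median of -0.10 where that of all genes was -0.09. With mitochondrial mRNA as a covariate 0 of 4 were above 0, with a median of -0.14 where that of all genes was -0.10. With values centred on each library's median, Gria1 turned to -0.07. Of the 5 kainate receptor genes, 4 were below 0, with a median of -0.10, and all 5 were without WT replicates 3 and 5. The summed AMPA receptor level was 285.4 TPM in Dscam del17/del17 cerebella and 258.2 TPM in WT cerebella on average, and the summed kainate receptor level 118.6 TPM in Dscam del17/del17 cerebella and 136.3 TPM in WT cerebella. The NMDA receptor genes, at 505.1 TPM in Dscam del17/del17 cerebella and 584.5 TPM in WT cerebella, exceeded both families in mean summed mRNA.

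Partners of the receptor likewise had 0 genes called. Among 15 scaffold and trafficking genes, 6 were above 0 and 9 below, against 44.0% of all genes below 0. Their median was -0.08, and that of all genes 0.05. Without WT replicates 3 and 5 the counts were 2 and 13. The median was then -0.15, and that of all genes -0.09. Ephb2, a receptor tyrosine kinase that clusters NMDA receptors, averaged 11.2 ± 2.48 TPM in Dscam del17/del17 cerebella and 16.2 ± 5.32 TPM in WT cerebella (log2 fold change -0.50, interval -1.002 to 0.008). Shank3, a scaffold of the postsynaptic density, had a log2 fold change of -0.31 (-0.63 to 0.01), Dlg4, which encodes PSD-95, one of -0.14 (-0.33 to 0.06), and Nsf, a membrane fusion ATPase, one of 0.07 (-0.16 to 0.30). For none of these 4 genes did the interval exclude 0.

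Among 12 kinases and downstream genes, 7 were above 0 and 5 below, with a median of 0.05, the same as that of all genes. Without WT replicates 3 and 5 the counts were 1 and 11. The median was then -0.11, and that of all genes -0.09. Nos1, the neuronal nitric oxide synthase that is tethered to the receptor by PSD-95, averaged 12.9 ± 1.23 TPM in Dscam del17/del17 cerebella and 19.9 ± 6.12 TPM in WT cerebella (log2 fold change -0.57, interval -1.03 to -0.11). Rasgrf2, a calcium-dependent Ras exchange factor, averaged 1.37 ± 1.07 TPM in Dscam del17/del17 cerebella and 0.369 ± 0.207 TPM in WT cerebella (log2 fold change 1.44, interval 0.12 to 2.75). Mutant replicates 2 and 3 had 2.31 and 2.74 TPM, and the other mutant libraries 0.508 to 0.664 TPM. Of the WT libraries only replicate 4, at 0.707 TPM, reached 0.5 TPM, so Rasgrf2 passed the filter mainly through mutant libraries. The ranges of both genes overlapped between genotypes, and both had an adjusted limma p of 0.779. Without WT replicates 3 and 5 the log2 fold change of Nos1 was -0.57 (-1.12 to -0.03) and that of Rasgrf2 1.12 (-0.39 to 2.63). Camk2b, a subunit of the calcium/calmodulin-dependent kinase, had a log2 fold change of -0.19 (-0.43 to 0.04) and Rasgrf1 one of -0.08 (-0.33 to 0.17).

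Among 13 genes that make, move or degrade glycine and D-serine, 6 were above 0 and 7 below. Their median was -0.01, and that of all genes 0.05. Without WT replicates 3 and 5 the counts were 4 and 9. The median was then -0.06, and that of all genes -0.09. Slc7a10, the transporter of D-serine and glycine known as Asc-1, averaged 61.6 ± 4.26 TPM in Dscam del17/del17 cerebella and 72.9 ± 10.3 TPM in WT cerebella (log2 fold change -0.23, interval -0.48 to 0.01). Dao, which degrades D-serine, had a log2 fold change of -0.26 (-0.67 to 0.15). The glycine transporter genes Slc6a5 and Slc6a9 had log2 fold changes of 0.54 (-0.27 to 1.34) and -0.10 (-0.42 to 0.23).

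Several facts of the whole libraries stand beside these values. Dscam itself, at chr16:96590840-97170752, had 3.05 to 5.42 TPM in Dscam del17/del17 cerebella and 6.29 to 9.05 TPM in WT cerebella, with ranges that did not overlap. Its log2 fold change was -0.82, the adjusted limma p 0.779 and the exact permutation p 0.0079. The listed TPM summed to 775148 to 805869 in Dscam del17/del17 libraries and 684771 to 838532 in WT libraries, lowest in WT replicate 5. This library stood apart, with 15623 genes at 0.5 TPM or more where the other 9 libraries had 17101 to 17763. Markers of granule cells, the cells GluN2C is best known from, summed to 2726 to 2932 TPM in Dscam del17/del17 cerebella and 2819 to 3428 TPM in WT cerebella, and 9 of the 10 had a log2 fold change below 0 (all 10 without WT replicates 3 and 5). Molecular layer interneuron markers summed to 1911 to 2165 TPM in Dscam del17/del17 cerebella and 1439 to 2093 TPM in WT cerebella, with 6 of 7 above 0. Purkinje cell markers summed to 2937 to 3607 TPM in Dscam del17/del17 cerebella and 2984 to 3565 TPM in WT cerebella, with 7 of 8 above 0. These counts were 5 of 7 interneuron and 5 of 8 Purkinje cell markers without WT replicates 3 and 5. The share of all genes below 0 was 44.0% with all 10 libraries. The median of all genes was 0.05 with all 10 libraries and -0.09 without WT replicates 3 and 5. Markers of myelinating oligodendrocytes summed to 6261 to 7301 TPM in Dscam del17/del17 cerebella and 4961 to 7399 TPM in WT cerebella, with 4 of 4 above 0 and 3 of 4 without WT replicates 3 and 5. Of these, Mobp had 911.3 to 1026 TPM in Dscam del17/del17 cerebella and 544.8 to 846.9 TPM in WT cerebella, and Mog 139.79 to 175.5 TPM in Dscam del17/del17 cerebella and 56.8 to 139.70 TPM in WT cerebella, both with ranges apart. Among the granule cell markers, ranges also lay apart for Neurod1 and Fat2. Neurod1 had 295.2 to 320.4 TPM in Dscam del17/del17 cerebella and 326.3 to 390.1 TPM in WT cerebella. Fat2 had 97.5 to 116.5 TPM in Dscam del17/del17 cerebella and 124.8 to 155.2 TPM in WT cerebella. Of all genes, 1.22% had ranges that lay apart. Dbh, a marker of noradrenergic neurons named here after its values were seen, had 0.685 to 1.45 TPM in Dscam del17/del17 cerebella and 0 to 0.458 TPM in WT cerebella. No WT library reached 0.5 TPM, so Dbh passed the filter only through mutant libraries. Its adjusted limma p was 0.779. The part of these markers in the Grin2c and Grin2d values was not tested, and in bulk tissue fewer cells of a type and less RNA per cell cannot be told apart.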

How the data were processed

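Total RNA from P21 cerebella of 5 Dscam del17/del17 and 5 WT mice was made into directional libraries. The authors trimmed reads with Trimmomatic 0.36, aligned them with HISAT2 2.2.0 to GRCm38.p5 and deposited TPM values per gene from StringTie 1.3.6. Their annotation release and strand setting are not given in the sources used here, and the read counts behind their own DESeq2 comparison were not analysed here. Gene symbols and positions were taken from GENCODE M21, and 191 of 53447 identifiers had no entry there.

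The 17168 genes that reached 0.5 TPM in 5 or more of the 10 libraries were fitted as log2 of TPM plus 0.1 with limma 3.58.1 in R 4.3.3 (trended empirical Bayes, two-sided, Benjamini-Hochberg adjustment over all genes kept, threshold 0.05). A fold change on this scale understates the change of low genes. Subunit shares and single genes were compared with exact two-sided permutation tests over all assignments of the libraries. Tables were handled in Python 3.11.15 with pandas 2.3.3, and plots were drawn with matplotlib 3.10.9. Promoter windows were taken from RefSeq (GRCm38.p6), in which 4 of the 7 genes were matched.

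Partner genes were named by rule: in each list, the 3 that ranked first by p and the 2 that ranked first by mean TPM, and for Grin1, Grin2a, Grin2b and Grin2c the 3 most alike genes of mean TPM of at least 5. The members, lists and rules were chosen with earlier results of these data known. Alternatives were other pseudocounts, filters and scalings, mitochondrial mRNA or Xist as a covariate, sample weights, a replicate block and libraries left out. The counts of list genes without WT replicates 3 and 5 were added after seeing the data. P-values measure the spread between 5 mice a group. The lists of brainstem and forebrain neuron markers are not reported here.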

Additional observations from a re-analysis of the deposited data

How the results depend on the processing

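The Grin2c log2 fold change stayed below 0 under all 22 alternatives, from -0.47 to -0.17, with adjusted limma p from 0.493 to 0.918, and without each library in turn it lay between -0.47 and -0.27. Leaving out 1 library moved the count of called genes between 0 and 1 (1500004A13Rik, called without mutant replicate 4).

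The near-zero members changed sign. Grin1 was at 0.037 with mitochondrial mRNA as a covariate and between -0.12 and 0.040 without each library in turn, Grin2a between -0.077 and 0.068, and Grin2b between -0.33 and 0.27, with -0.58 when WT replicates 3 and 5 were left out. Grin3a was at -0.32 with that covariate, -0.035 with sample weights, -0.31 without WT replicates 3 and 5, and between -0.13 and 0.44 without each library in turn. The cause was not tested.

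For the shares, the Grin2c difference was -5.82 percentage points of the sum over all 7 genes (exact permutation p 0.0317), -0.32 as a log2 ratio to Grin1 (exact permutation p 0.0317) and between -2.10 and -1.21 points without each library in turn, where p fell under 0.05 without mutant replicate 2 or WT replicate 2. The Grin2d difference stayed between 0.930 and 1.24 points without each library and was 0.21 as a log2 ratio to Grin1. The Grin2a difference lay between 0.331 and 0.852 points (exact permutation p 0.0476 without WT replicate 2). The Grin2b difference was 0.057 as a log2 ratio to Grin1 and between -0.051 and 0.050 points without each library.

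Same-numbered libraries did not deviate together (correlations 0.008 to 0.098), so the numbers were not taken as pairs. With the replicate block the Grin2d share difference was 1.11 points with an exact sign-flip p of 0.0625, the smallest that 5 pairs can give. Grin2b was not run under quantile normalization, the covariates, sample weights or the stricter filter, where it was not kept. TPM holds no depth, so counting error could not be given.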
